A study of Mus musculus with 6 samples.

Results

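The acyl-CoA thioesterases of the ACOT family were followed in mouse liver through 10 genes, Acot1, Acot2, Acot3, Acot4, Acot7, Acot8, Acot9, Acot11, Acot12 and Acot13, out of 55536 genes with a value in the data. The genes were chosen by symbol, each matched to 1 identifier in the mouse annotation GENCODE M21. The family was put forward with earlier results of these libraries known, among them the PS-MP and water values of Acot1 and Acot2, so the differences between the groups below describe the libraries and are not independent evidence about the family. No threshold on a measured value was used to choose the members.

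Liver RNA was sequenced in 6 libraries. The mice were males of the inbred strain C57BL/6, aged 6 weeks when dosing began. For 3 libraries they had been given polystyrene microplastics (PS-MP), small plastic particles, by mouth at 0.4 mg per day, in 2 dosings a week for 8 weeks, and for 3 they had received water on that schedule. No genotype, transgene or second agent is named for either group. The labels do not say whether each library is a separate mouse, so p-values measure only the spread between these libraries, which may be technical. They also give no hour of collection, feeding state or batch, and where such conditions differed by group they cannot be told apart from PS-MP.

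Acyl-CoA thioesterases cut the bond between a fatty acid and coenzyme A, which frees both, and so run against the acyl-CoA synthetases that make the bond. Type I enzymes (ACOT1 to ACOT6) share an alpha/beta-hydrolase fold, and their genes lie side by side in the mouse. Type II enzymes (ACOT7 to ACOT13) are built on an unrelated fold, the hotdog fold. In liver several type I genes are known targets of PPARalpha, the fatty acid receptor that is active in fasting.

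Totals ran from 13082210 to 16948343 reads per library. Genes for the main hepatocyte products had reads in every library (8 of 8 markers found, with a summed 94453 to 115198 CPM, reads scaled to the library's total). PS-MP replicate 3 stood apart from the other libraries. A list of 9 neuron markers summed to 180 CPM there. Its sum was 27.0 CPM in PS-MP replicate 1, 17.5 in replicate 2 and 9.09 to 10.9 in water. All 9 markers had reads in PS-MP replicates 1 and 3, 8 in replicate 2 and 2 to 5 in each water library. A list of 7 brown fat markers summed to 203 to 341 CPM in water and 129 to 176 in PS-MP, also without overlap. Most of that sum was Elovl3, a fatty acid elongase that liver expresses too, with a log2 fold change of -0.81 (adjusted p = 0.131 by limma). Ucp1, which defines brown fat, had 5.59, 0 and 0.631 FPKM in water replicates 1, 2 and 3 and 0, 0 and 2.79 in PS-MP. FPKM is a read number scaled to exon length and to the library's total. A list of 7 glia markers, of which 5 had reads in each water library, summed to 261 to 314 CPM in water and 341 to 494 in PS-MP. That sum was not split by gene, so it is not a measure of glial RNA in these libraries. It did not overlap between the groups and was highest in PS-MP replicate 3. The fold changes of the members are given with and without that library where it moves them, and the part of these transcripts in the results was not tested beyond that. For Acot3 and Acot4 they are also given without PS-MP replicate 2, which moves them the other way.

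All 10 members passed the low-count rule and were tested. The plot of levels by library shows their range. Acot12, a cytosolic enzyme of liver that hydrolyses acetyl-CoA, was the most abundant at 83.3 FPKM (mean of 6 libraries, range 81.0 to 88.7), and no library overlapped those of Acot1, the next member, at 33.4 (13.6 to 46.4). Over all 6 libraries Acot13 followed at 27.7, then Acot4 at 17.6, Acot2 at 15.7, Acot8 at 7.80, Acot7 at 4.42, Acot3 at 4.14, Acot9 at 1.43 and Acot11 at 0.617. The order differed between the groups. By group mean, Acot2 (22.3 FPKM) was above Acot4 (19.3) and Acot3 (5.20) above Acot7 (4.29) in water, while in PS-MP Acot13 (27.8) was above Acot1 (23.3). The libraries of neighbours in the order over all 6 were also separate between Acot13 and Acot4, between Acot8 and Acot7 and between Acot9 and Acot11. The other neighbours overlapped: Acot1 and Acot13, Acot4 and Acot2, Acot2 and Acot8, Acot7 and Acot3, and Acot3 and Acot9.

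**Figure D1:**
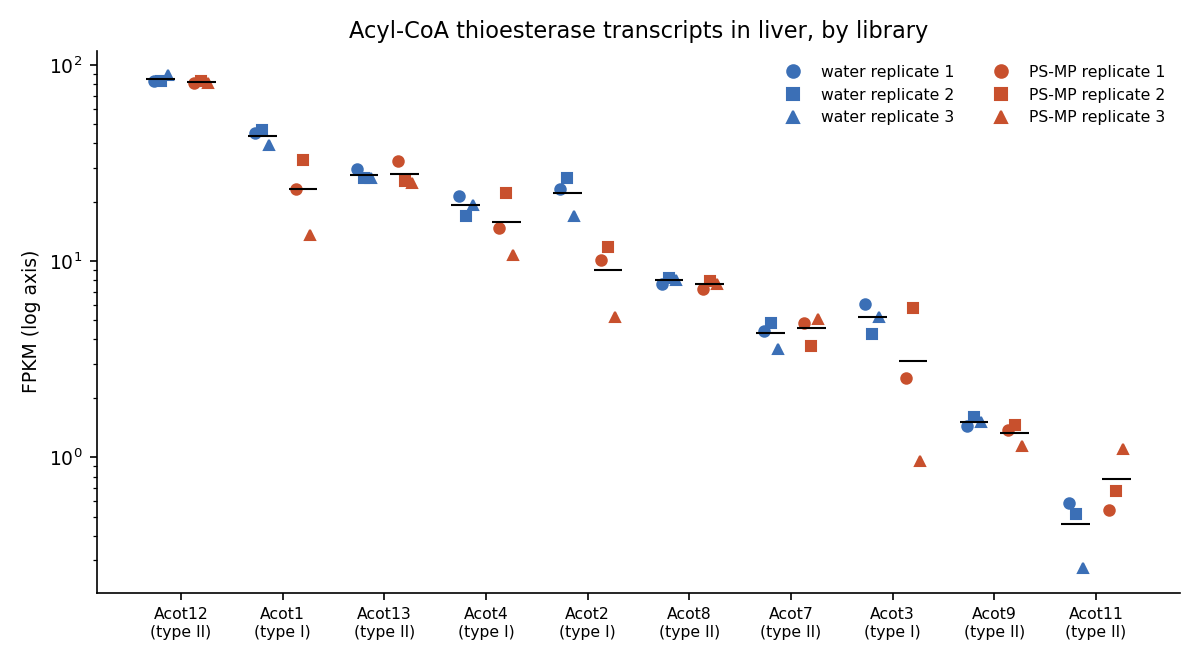
FPKM on a log axis for each member, ordered by mean level, with 1 point per library (water in blue, PS-MP in red) and a black line at each group's mean. PS-MP replicate 3 is the lowest point for all 4 type I members, from 13.6 FPKM for Acot1 to 0.955 for Acot3, while the 6 Acot12 points lie between 81.0 and 88.7.

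The comparison of PS-MP with water asked which of these transcripts differed after 8 weeks of dosing. Acot2 and Acot1 had the lowest values relative to water, 2.46-fold and 1.96-fold lower, and the type II members lay near their water level except Acot11. At an adjusted p under 0.05 by limma, 0 of the 10 members were called, where 0.489% of the 13299 genes tested were. Acot1 and Acot2 had an unadjusted p under 0.05, against 13.1% of all genes tested, or 5.57% counting those lower in PS-MP. The call differed in 2 other fits, by limma-voom on recovered reads (1.0% of genes called) and by limma with a replicate block (0.173% of genes called), which each called 1 member, Acot2. The block treats same-numbered libraries as pairs, and such libraries did not deviate together (correlations of -0.04, 0.05 and -0.01). Acot1 and Acot2 had PS-MP values all below the water values, which held for 8.12% of all genes. With Acot3, 3 of the 10 were at least 1.5 times lower, as 1.08% of all genes were, and 7 of 10 had a negative fold change, as 46.3% did. Because the members were chosen with this contrast known, nothing is read from these counts. Members had a median log2 fold change of -0.11, and all genes tested one of 0.01. In tissue RNA, fewer cells of a type and less RNA per cell cannot be told apart.

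**Figure D2:**
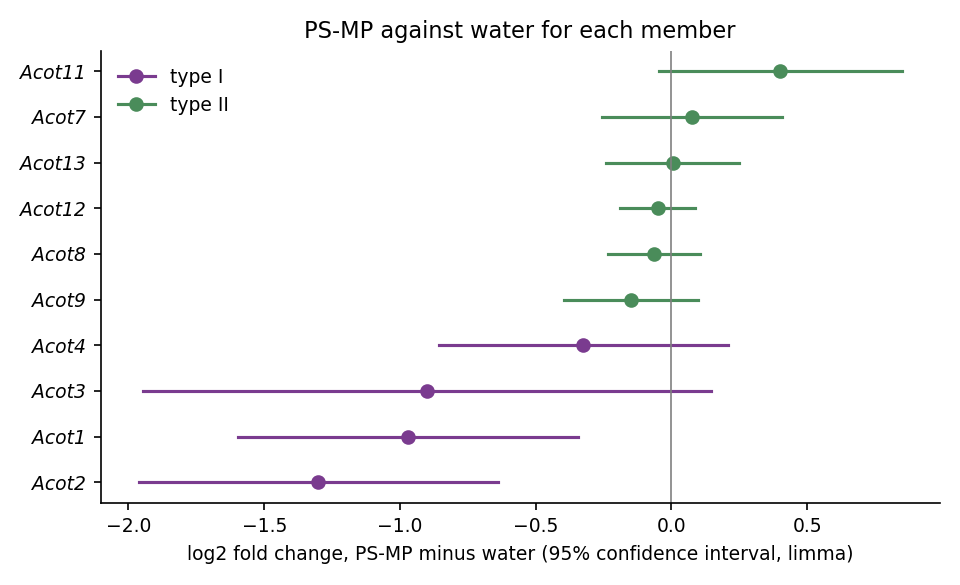
Log2 fold change of PS-MP against water for each member, with the 95% confidence interval from the limma fit (3 libraries a group). The intervals of Acot1 and Acot2 lie below 0, and those of the other 8 members include 0.

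The type I members Acot2, Acot1, Acot4 and Acot3 lie in that order within a cluster of 6 Acot genes on the plus strand of chromosome 12, which spans 123 kb from the start of Acot2 to the end of Acot6. ACOT2 is the mitochondrial enzyme for long-chain acyl-CoA. The Acot2 gene (chromosome 12, 83987861 to 83993873, GRCm38) had 23.3, 26.5 and 16.9 FPKM in water replicates 1, 2 and 3 and 10.2, 11.9 and 5.19 in PS-MP. Every PS-MP library was below every water library, and PS-MP replicate 3 was the lowest. The log2 fold change was -1.30 (standard error 0.29, 95% confidence interval -1.96 to -0.64, adjusted p = 0.12 by limma), and it was -0.96 without PS-MP replicate 3. Acot2 ranked 218 of 13299 by p.

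ACOT1 is the cytosolic counterpart of ACOT2. The Acot1 gene (chromosome 12, 84009490 to 84018371) had 45.3, 46.4 and 39.0 FPKM in water and 23.3, 33.0 and 13.6 in PS-MP, in replicates 1, 2 and 3. The groups did not overlap, although PS-MP replicate 2 came close to water replicate 3. Its log2 fold change was -0.97 (standard error 0.27, 95% confidence interval -1.60 to -0.35, adjusted p = 0.193 by limma), and -0.64 without PS-MP replicate 3. In reads, Acot1 had 2698, 3085 and 2217 in water and 1194, 2061 and 797 in PS-MP.

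Acot1 and Acot2 are close copies, and reads can fit both. In an alignment of their coding sequences 1180 of 1239 aligned bases (95.2%) were identical, against 83.9% between Acot1 and Acot3 and 74.1% between Acot1 and Acot4. The longest identical run in the coding part was 273 bases, bases 887 to 1159 of Acot1. The 120 coding bases that straddle the end of that run, bases 1100 to 1219 counted from the start codon of Acot1, are shown to make the likeness visible. Capitals mark bases that differ from Acot1.
Acot1: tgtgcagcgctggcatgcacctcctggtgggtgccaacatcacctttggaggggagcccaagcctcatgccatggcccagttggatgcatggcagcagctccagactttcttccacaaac
Acot2: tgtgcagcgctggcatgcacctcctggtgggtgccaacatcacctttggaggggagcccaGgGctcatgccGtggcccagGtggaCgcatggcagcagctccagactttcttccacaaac
Acot3: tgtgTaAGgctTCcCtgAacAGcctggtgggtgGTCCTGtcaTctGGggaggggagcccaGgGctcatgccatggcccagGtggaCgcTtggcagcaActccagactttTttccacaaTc
Acot4: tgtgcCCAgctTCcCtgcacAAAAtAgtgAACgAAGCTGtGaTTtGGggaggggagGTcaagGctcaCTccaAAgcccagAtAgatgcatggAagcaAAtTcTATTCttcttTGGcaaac
In this window Acot2 differed from Acot1 at 5 bases, Acot3 at 26 and Acot4 at 46. Over all annotated transcripts, 17.1% of the stretches of 100 bases in Acot2 also occurred in Acot1, while 0% occurred in Acot3, Acot4, Acot5 or Acot6. For stretches of 50 bases in Acot2 the shares were 24.5% in Acot1 and 1.26% to 3.87% in each of Acot3 to Acot6. For Acot1, 12.4% of its stretches of 100 bases occurred in another Acot gene, for Acot3 4.27% and for Acot4 0.336%. The sources used here do not give how reads fitting more than 1 gene were counted, and the single values of Acot1 and Acot2 are uncertain for that reason.

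A sum over both copies does not depend on how reads were split between them. It does depend on whether reads fitting both were dropped or counted more than once, which the sources used here do not give. Acot1 and Acot2 together had 229, 240 and 190 CPM in water and 114, 155 and 64.8 CPM in PS-MP replicates 1, 2 and 3. The sum kept the groups apart, with a water mean 1.97 times the PS-MP mean, or 1.63 times without PS-MP replicate 3. The level of Acot2 relative to Acot1 was 51.5%, 57.0% and 43.5% in water and 43.6%, 35.9% and 38.1% in PS-MP. These ranges overlap narrowly, at water replicate 3 and PS-MP replicate 1.

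The peroxisomal members of the cluster were less regular. ACOT4 hydrolyses succinyl-CoA and the CoA esters of dicarboxylic acids in peroxisomes. Acot4 (chromosome 12, 84038379 to 84048601) had 21.6, 16.9 and 19.4 FPKM in water and 14.8, 22.2 and 10.7 in PS-MP. PS-MP replicate 2 held the highest of the 6 values and the other PS-MP libraries the lowest. Its log2 fold change was -0.32 (95% confidence interval -0.86 to 0.21, adjusted p = 0.589 by limma) and -0.08 without PS-MP replicate 3. Leaving out PS-MP replicate 2 instead gave -0.59. ACOT3 acts on long-chain acyl-CoA in peroxisomes. Acot3 (chromosome 12, 84052144 to 84060402) had 6.09, 4.27 and 5.23 FPKM in water and 2.53, 5.79 and 0.955 in PS-MP. Replicate 2 of PS-MP lay within the water range, while replicates 1 and 3 were below it. The log2 fold change of Acot3 was -0.90 (95% confidence interval -1.95 to 0.15, adjusted p = 0.45 by limma), and -0.37 without PS-MP replicate 3. Leaving out PS-MP replicate 2 instead gave -1.43.

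The 2 remaining genes of the cluster, outside the 10 members, were near the limit of detection. Acot5, another peroxisomal enzyme, had 10, 4 and 3 reads in water and 2, 0 and 1 in PS-MP, and was left untested by the low-count rule. Acot6, a peroxisomal enzyme for branched-chain acyl-CoA, had 27, 39 and 26 reads in water and 8, 21 and 29 in PS-MP, with a log2 fold change of -0.21 (95% confidence interval -0.51 to 0.09). The 6 tested protein-coding neighbours within 200 kb of the cluster had log2 fold changes from -0.04 (Numb) to 0.21 (Dnal1). An unadjusted p under 0.05 was found for 0 of them, against 13.1% of all genes tested. The limma test was passed by 0 of them, against 0.489% of all genes tested. Numb, a regulator of Notch signalling, had 14.6, 13.3 and 14.05 FPKM in water and 14.4, 13.3 and 13.04 in PS-MP. Dnal1 had 0.313, 0.255 and 0.328 FPKM in water and 0.320, 0.289 and 0.705 in PS-MP. All libraries of Papln and Dnal1 were under 1 FPKM, where the FPKM + 0.5 scale understates changes. PS-MP replicate 3 was the highest library for Papln, Dnal1 and Ptgr2, and not for Numb, Riox1 and Elmsan1. The neighbours were chosen by distance, after the values of the cluster had been seen.

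**Figure D3:**
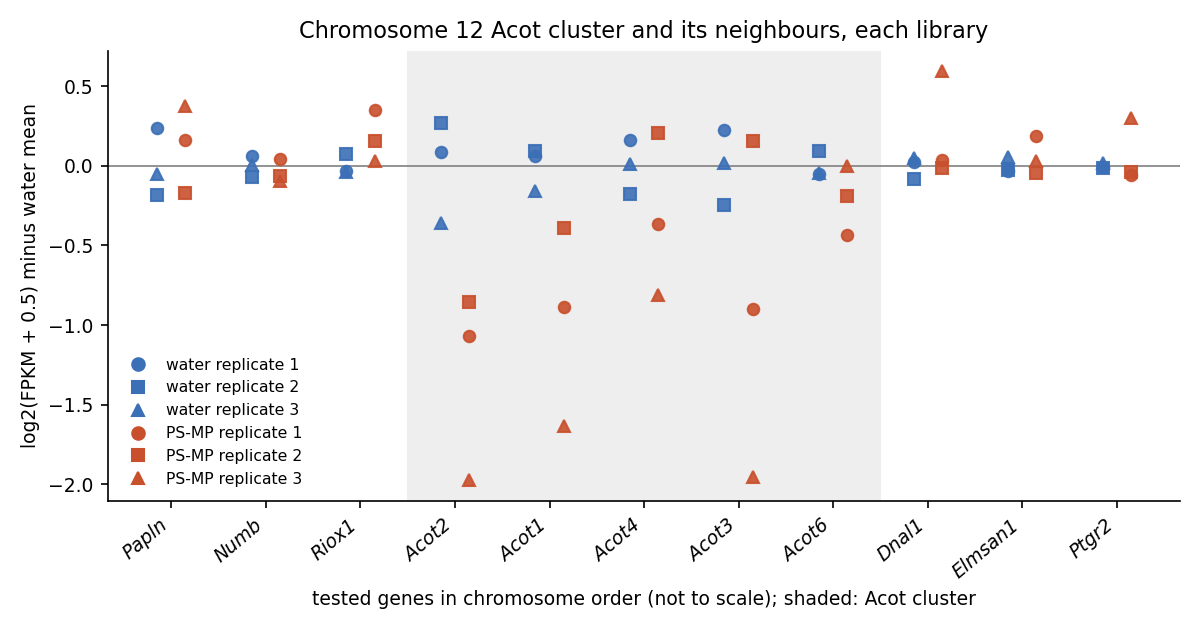
Each library's log2(FPKM + 0.5) minus the water mean of the gene, for the tested protein-coding genes of the chromosome 12 Acot cluster (shaded) and within 200 kb of it, in chromosome order. PS-MP replicate 3 lies lowest at Acot2, Acot1, Acot4 and Acot3. It lies highest at the neighbours Papln, Dnal1 and Ptgr2, and not at Numb, Riox1 and Elmsan1. At Numb all 6 libraries stay close to 0.

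The type I members varied more between the PS-MP libraries than most genes did. The ratio of the highest to the lowest PS-MP library was 6.06 for Acot3, 2.42 for Acot1, 2.29 for Acot2 and 2.07 for Acot4, against a median of 1.19 over the 9977 tested genes with a mean of at least 1 FPKM. A ratio as large was seen in 0.261%, 2.12%, 2.496% and 3.26% of those genes. In water the same 4 members had ratios of 1.19 to 1.56, against a median of 1.18. A water ratio as large was seen in 45.9% of those genes for Acot1, 7.80% for Acot2, 13.6% for Acot3 and 28.4% for Acot4. A wide spread was not limited to type I. Acot11, a type II member and the least abundant, had a ratio of 2.04 in PS-MP and 2.15 in water. All 4 type I members had their highest PS-MP value in replicate 2 and their lowest in replicate 3. Being lowest of the PS-MP libraries in replicate 3 held for 7 of the 10 members and for 35.2% of the 9977 genes. In PS-MP replicate 3 the levels stood at 18.4% of the water mean for Acot3, 23.3% for Acot2, 31.3% for Acot1 and 55.5% for Acot4. In that library the type II members stood at 75.5% of the water mean for Acot9, 91.2% for Acot13, 95.4% for Acot12, 96.2% for Acot8, 119% for Acot7 and 241% for Acot11.

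Summed over the 10 members, the family had 223, 219 and 209 FPKM in water and 179, 195 and 152 in PS-MP. The type I members gave 96.3, 94.2 and 80.5 FPKM of this in water and 50.8, 72.9 and 30.5 in PS-MP. Type II members gave 126, 125 and 129 FPKM in water and 128, 123 and 121 in PS-MP. The type I share was thus 43.3%, 43.0% and 38.5% in water and 28.4%, 37.3% and 20.1% in PS-MP, and the PS-MP shares were all below the water shares. Its mean was 41.6% in water and 28.6% in PS-MP, or 32.8% without PS-MP replicate 3. Acot12 alone held 37.1% to 42.4% of the family sum in water and 42.5% to 53.4% in PS-MP, at nearly constant FPKM.

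**Figure D4:**
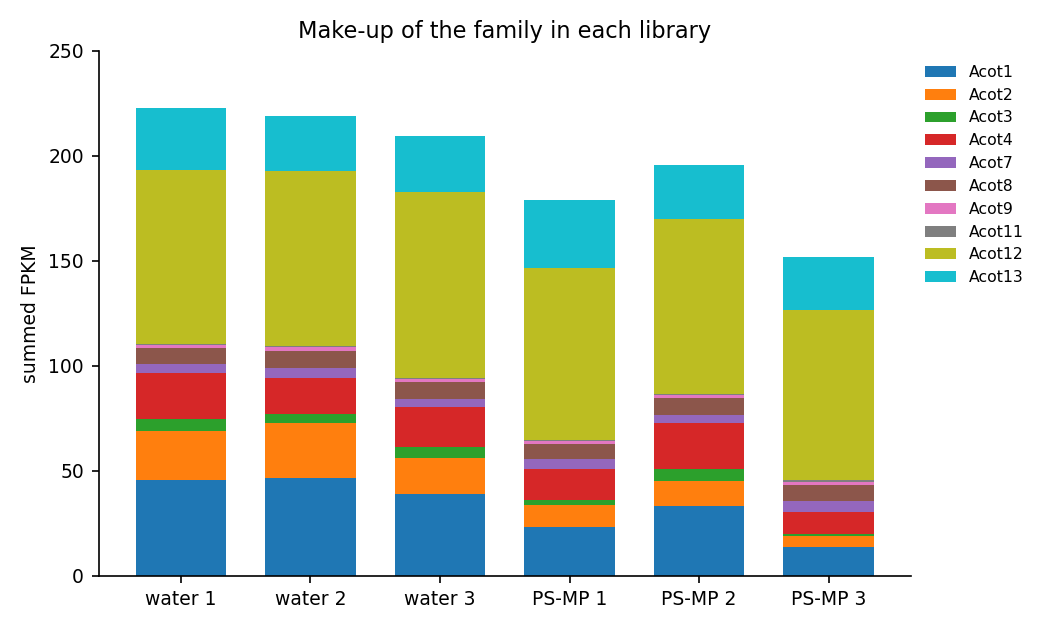
Summed FPKM of the 10 members in each library, stacked by gene. The bars run from 152 in PS-MP replicate 3 to 223 in water replicate 1, and the Acot1 and Acot2 blocks at the base are shorter in the 3 PS-MP libraries.

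Among the type II members, the cytosolic and mitochondrial liver enzymes were close to water. Acot12 (chromosome 13, 91741512 to 91786148) had 82.6, 83.2 and 88.7 FPKM in water and 81.5, 83.0 and 81.0 in PS-MP. The groups overlapped, and the log2 fold change was -0.05 with a 95% confidence interval of -0.19 to 0.09. The PS-MP libraries differed by a ratio of 1.02, a spread that 98.1% of genes reached or passed. ACOT13, also called THEM2, binds the phosphatidylcholine transfer protein and is found at mitochondria. Acot13 (chromosome 13, 24817948 to 24831540) had 29.4, 26.6 and 26.7 FPKM in water and 32.6, 25.7 and 25.1 in PS-MP. Its log2 fold change was 0.00 (95% confidence interval -0.24 to 0.25), or 0.07 without PS-MP replicate 3, and the highest and the lowest value both came from PS-MP libraries.

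ACOT8 is a peroxisomal enzyme of broad substrate range. Acot8 (chromosome 2, 164792765 to 164804882) had 7.68, 8.21 and 8.07 FPKM in water and 7.20, 7.98 and 7.69 in PS-MP, with a log2 fold change of -0.06 (95% confidence interval -0.24 to 0.11). It shares 246 exon bases, 12.3% of its exon length, with Snx21 on the opposite strand. Unlike the peroxisomal type I members, Acot8 was not low in PS-MP replicate 3. ACOT9 is a mitochondrial enzyme. Acot9 (chromosome X, 155262443 to 155297654) had 1.45, 1.61 and 1.51 FPKM in water and 1.38, 1.46 and 1.15 in PS-MP, with a log2 fold change of -0.15 (95% confidence interval -0.39 to 0.10), and of -0.08 without PS-MP replicate 3. Its retrocopy Acot10 had 1 read in water replicate 2 and 0 in the other libraries. Acot10 shares 1.11% of its stretches of 100 bases with Acot9, and 23.1% of those of 50 bases.

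ACOT7 is best known from brain, where it hydrolyses arachidonoyl-CoA. Acot7 (chromosome 4, 152178134 to 152271855) had 4.43, 4.86 and 3.57 FPKM in water and 4.86, 3.72 and 5.08 in PS-MP. The groups overlapped, with a log2 fold change of 0.08 (95% confidence interval -0.25 to 0.41) and of 0.00 without PS-MP replicate 3. That library, with 180 CPM of neuron markers, held the highest Acot7 value. PS-MP replicate 1 and water replicate 2 were both at 4.86 FPKM, with 27.0 and 9.09 CPM of those markers. The part of brain transcripts in the Acot7 value was not tested.

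ACOT11, also called THEM1, is a long-chain acyl-CoA thioesterase induced by cold in brown fat. Acot11 (chromosome 4, 106744555 to 106804998) was the least abundant member, with 0.587, 0.516 and 0.273 FPKM in water and 0.543, 0.673 and 1.11 in PS-MP. These values rest on 54, 53, 24, 43, 65 and 100 reads. PS-MP replicate 3 was the highest and water replicate 3 the lowest, and the rest overlapped. The log2 fold change on the FPKM + 0.5 scale was 0.40 (95% confidence interval -0.05 to 0.85, adjusted p = 0.434 by limma), and 0.22 without PS-MP replicate 3. PS-MP replicate 3, highest for Acot11, had 2.79 FPKM of Ucp1 and the most neuron markers. Water replicate 1 had the most Ucp1, 5.59 FPKM, and water replicate 3, lowest for Acot11, had 0.631. Ucp1 was listed at 0 in the other 3 libraries, whose Acot11 values were 0.516 to 0.673 FPKM. The part of brown fat or brain transcripts in the Acot11 value was not tested. Acot11 shares 1263 exon bases, 20.9% of its exon length, with Fam151a on the opposite strand, which is listed at 0 in all 6 libraries.

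The 250 bases before the annotated start site were searched for DR1, a direct repeat of the hexamer AGGTCA with 1 base of any kind between the copies, on either strand, the element that PPARalpha and other nuclear receptors are known to bind. Sequences came from RefSeq on GRCm38.p6, which held 9 of the 10 members, Acot13 being the one without an entry. Of the 9, the Acot12 window came closest, with 1 mismatch, a match as close as in 0.484% of 32851 windows of that length. Acot4 had a match with 2 mismatches, ending at the base before the start site, and 3.24% of windows had a match with 2 or fewer. Acot2 and 1 of the 2 Acot11 windows had 3 mismatches, where 21.3% of windows had 3 or fewer, and the other members had at least 4. The 3 windows below are those of Acot2, the member with the lowest fold change, and of the 2 closest matches, with the match in capitals.
Acot2, chr12:83987611-83987860, plus strand: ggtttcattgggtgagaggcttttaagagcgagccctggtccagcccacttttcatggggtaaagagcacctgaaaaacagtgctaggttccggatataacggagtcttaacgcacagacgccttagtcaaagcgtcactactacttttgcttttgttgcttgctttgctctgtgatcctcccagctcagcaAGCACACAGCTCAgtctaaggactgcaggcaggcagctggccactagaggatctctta
Acot4, chr12:84038129-84038378, plus strand: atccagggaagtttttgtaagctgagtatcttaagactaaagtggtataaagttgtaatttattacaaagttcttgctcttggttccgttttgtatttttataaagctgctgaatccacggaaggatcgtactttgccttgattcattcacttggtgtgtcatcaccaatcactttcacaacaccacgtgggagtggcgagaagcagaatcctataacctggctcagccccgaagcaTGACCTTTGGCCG
Acot12, chr13:91741271-91741520, plus strand: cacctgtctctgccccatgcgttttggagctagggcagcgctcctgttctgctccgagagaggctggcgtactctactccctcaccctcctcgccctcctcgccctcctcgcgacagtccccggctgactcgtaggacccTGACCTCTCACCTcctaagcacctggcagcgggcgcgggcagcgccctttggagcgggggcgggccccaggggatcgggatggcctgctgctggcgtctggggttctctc
The closest match thus belonged to Acot12, and Acot1 had none within 3 mismatches. These letters describe the window only, and elements outside it were not searched. Any link between the matches and the fold changes was not tested.

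The enzymes next to the type I family in structure were BAAT, which joins bile acids to glycine or taurine, and its relatives ACNAT1 and ACNAT2, which join fatty acids to amino acids. Baat had 195, 211 and 215 FPKM in water and 179, 184 and 170 in PS-MP (log2 fold change -0.22, adjusted p = 0.25 by limma). Acnat1 had 40.3, 38.5 and 38.8 FPKM in water and 35.8, 33.6 and 28.8 in PS-MP (-0.26, adjusted p = 0.266 by limma). In both the groups did not overlap. Acnat2 had 29.0, 37.5 and 27.0 FPKM in water and 23.4, 33.4 and 9.95 in PS-MP, with PS-MP replicate 2 highest and replicate 3 lowest of their group as in Acot3 and Acot4. Its log2 fold change was -0.62, and -0.14 without PS-MP replicate 3. Of 18 thioesterases outside the 10 members, 14 were tested and 0 passed the limma test, where 0.489% of all genes tested did. An unadjusted p under 0.05 was found for 2 of them, Baat and Acnat1, and for 13.1% of all genes tested. The 14 had a median log2 fold change of -0.04, with 7 negative. Them4, a mitochondrial enzyme, had 0.04 and Them6 -0.25. Them5 had at most 3 reads in a library.

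Acyl-CoA synthetases make the bond that thioesterases cut. Of 17 tested of 23 listed, 1 passed, Acsl1, the main long-chain synthetase of liver, where 0.489% of all genes tested did. Acsl1 had 265, 271 and 258 FPKM in water and 178, 197 and 185 in PS-MP, a log2 fold change of -0.50 (standard error 0.07, adjusted p = 0.0386 by limma), with all 3 PS-MP libraries below water. That call was lost in 8 of 13 alternatives, among them each of the 6 fits that left out 1 library, the replicate block (adjusted p = 0.093 by limma) and no low-count rule, with the log2 fold change between -0.54 and -0.47 throughout. Over all alternatives the adjusted p of Acsl1 by limma ran from 0.0142 to 0.154, highest without water replicate 1. Acsm5, a medium-chain synthetase, was the only other one with an unadjusted p under 0.05, at 0.20 (adjusted p = 0.301 by limma). The median of the list was -0.02.

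In the list of coenzyme A synthesis, breakdown and acyl-CoA binding, 0 of 17 tested genes passed the limma test, where 0.489% of all did. An unadjusted p under 0.05 was found for 4 of the 17, and for 13.1% of all genes tested. Ppcs, an enzyme of coenzyme A synthesis (-0.29, adjusted p = 0.23 by limma), and Vnn1, which breaks pantetheine down (-0.50, adjusted p = 0.246 by limma), had lower values in PS-MP. Pank3, a kinase of the first step of coenzyme A synthesis (0.23), and Nudt7, a peroxisomal hydrolase of coenzyme A (0.50), had higher ones.

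For PPARalpha and its target genes in liver, 0 of 35 genes passed the limma test, where 0.489% of all genes tested did. An unadjusted p under 0.05 with lower values in PS-MP was found for 13 of 35, against 5.57% of all genes tested, and for 0 with higher values. The median log2 fold change of the list was -0.17 (-0.13 without PS-MP replicate 3), and 32 of 35 were negative, against 46.3% of all genes tested. The 3 others were Ppara at 0.04, Cyp4a32 at 0.05 and Creb3l3 at 0.03. The smallest p belonged to the lipid droplet protein Plin2 (-0.73, adjusted p = 0.0627 by limma) and the fasting hormone Fgf21 (-1.30, adjusted p = 0.0889 by limma), which each passed in 1 of 13 alternatives. Fgf21 had 9.001, 7.20 and 9.99 FPKM in water and 3.05, 4.88 and 2.18 in PS-MP, with the groups apart. The list was written with earlier results on these genes known, and nothing is read from its counts.

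**Figure D5:**
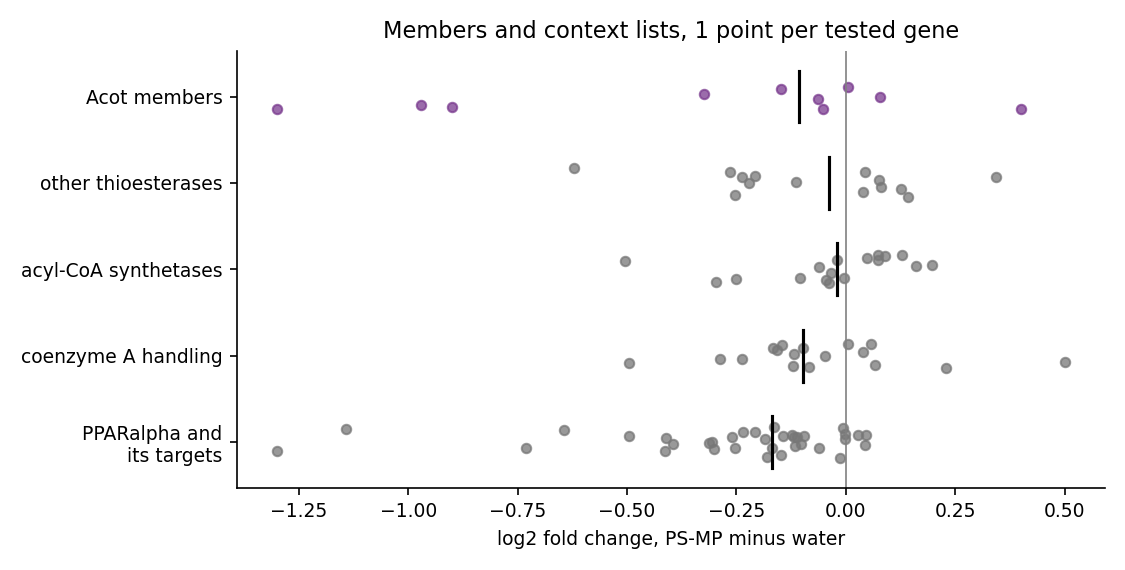
Log2 fold change of PS-MP against water, with 1 point per tested gene and a black line at the median of each list. Acot2, Acot1 and Acot3 are the 3 leftmost points of the members, at -1.30, -0.97 and -0.90, and the medians run from -0.17 for PPARalpha and its targets to -0.02 for the synthetases.

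Genes whose pattern over the 6 libraries was most like that of Acot1 and Acot2 were found by the root mean square difference of log2(FPKM + 0.5), centred on each gene's mean, among 9976 other genes with a mean of at least 1 FPKM. For Acot2 the nearest was Tubb2a, a beta-tubulin, at 0.19, followed by Acot1 at 0.21, the heat shock gene Hspa1b at 0.27, 2010003K11Rik at 0.28 and Gm23119 at 0.29. Those nearest to Acot1 were Ehhadh at 0.20, Hspa1b at 0.21, 2010003K11Rik at 0.21, Acot2 at 0.21 and Tubb2a at 0.23. Ehhadh, the bifunctional enzyme of peroxisomal beta-oxidation, had 1223, 1492 and 1317 FPKM in water and 838, 1271 and 589 in PS-MP, with a log2 fold change of -0.65, or -0.38 without PS-MP replicate 3. Acot3 ranked 18 and Acot4 ranked 50 in likeness to Acot1, while Acot8 ranked 2953 and Acot7 ranked 8136.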

How the data were processed

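The authors deposited 1 FPKM value per gene and library (3 water, 3 PS-MP); the unit was read from the values. Per the submitters' processing notes, CASAVA, FastQC, MultiQC, Trimmomatic 0.38, HISAT2 2.1.0, featureCounts 1.6.0 and DESeq2 1.22.1 were named, with the human build GRCh38, whereas all 55536 identifiers are in mouse GENCODE M21 (GRCm38), used here. Strand, read length and multi-mapping settings are not given in the sources used here. Each FPKM times exon length gave whole reads within 0.001 for 100.0% of values above 0. Totals of 13082210 to 16948343 reads set the precision.

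Genes with at least 0.664 CPM (10 reads in a median library) in 3 libraries and 15 reads in all were tested with limma-trend (limma 3.58.1, R 4.3.3) on log2(FPKM + 0.5), group as the only term, with Benjamini-Hochberg adjustment over 13299 genes. Fold changes on this scale understate low genes. The design assumed counts or FPKM, and FPKM applied. On simulated data with 3 libraries a group, the fit called 4.89%, 49.7% and 99.1% of genes changed 1.5, 2 and 4 times, and 5.21% of its calls were false. The simulation gave every gene the same spread between libraries (dispersion 0.04) and changed only genes above a read minimum. These shares do not carry over to genes with a wider spread, such as the type I members in PS-MP. Within groups no 2 libraries were identical (chi-square 9.99 to 28.3 per degree of freedom). Members and lists were chosen with earlier results of these data known. Named genes were all members, near relatives, the passing or 2 lowest-p genes of each list, the members of counts of 5 or fewer, and the 5 genes nearest in pattern. Sequences were aligned with Biopython 1.88. Alternatives covered pseudocount, low-count rule, scaling, limma-voom, replicate block and leaving out each library.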

Additional observations from a re-analysis of the deposited data

How the results depend on the processing

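Over 13 alternatives and 10 members, 122 of 130 fold changes kept their sign and their side of the threshold. With 0 members called in the main fit, keeping that side says little about the size of a change. The number of members called was 0, except 1 with limma-voom on the recovered reads and 1 with the replicate block, in both cases Acot2 (adjusted p = 0.0491 and 0.0447 by limma). Over its alternatives Acot2 had an adjusted p from 0.0447 to 0.369, and its log2 fold change ran from -1.52 to -0.96. Acot1 ran from -1.26 to -0.64, lowest without PS-MP replicate 2 and highest without PS-MP replicate 3. The log2 fold change ran from -1.43 to -0.37 for Acot3, from -0.59 to -0.08 for Acot4 and from 0.22 to 0.75 for Acot11. Signs turned for Acot13, from 0.00 to -0.0188 with median-of-ratios scaling and to -0.00334 with limma-voom, and when water replicate 2, water replicate 3 or PS-MP replicate 1 was left out (range over the 6 left-out libraries -0.113 to 0.0709). The sign of Acot7 turned without water replicate 3 (range -0.0358 to 0.201). The count of all genes called, 65, was 133 with limma-voom, 23 with the replicate block and 0 with no low-count rule, which tests 26854 genes. It ran from 0 to 36 when 1 library was left out: 3, 31 and 0 without water replicate 1, 2 or 3, and 36, 2 and 13 without PS-MP replicate 1, 2 or 3. In the 2 fits that called 0 genes, 2064 with no low-count rule and 1641 without water replicate 3 had an unadjusted p under 0.05. The cause was not tested. Same-numbered libraries did not deviate together (correlations of -0.04, 0.05 and -0.01 over tested genes), so the numbers are not taken as pairs. The replicate block assumes such pairs, and its call of Acot2 carries that limit. Among the members, reads limit Acot9 and Acot11 most, with 39 to 62 and 24 to 100 per library.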

Other observations

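The antisense transcript 4732463B04Rik, which overlaps 9.21% of the exon length of Acot4 and 9.08% of that of Acot3 from the other strand, had 2.63, 2.03 and 2.70 FPKM in water and 2.06, 4.002 and 1.58 in PS-MP. Its highest and lowest PS-MP libraries, replicates 2 and 3, were those of Acot3 and Acot4, and its log2 fold change was -0.03 (95% confidence interval -0.64 to 0.58). Without knowing whether counting used strand, reads of the overlap cannot be told apart. The level of Acot3 relative to Acot4 was 28.2%, 25.2% and 27.0% in water and 17.1%, 26.0% and 8.91% in PS-MP, so the ratio also set PS-MP replicates 1 and 3 below water and replicate 2 within its range. The readthrough gene Gm49366 has 429 exon bases, and on the same strand it shares 396 with Acot3 (11.5% of the exon length of Acot3) and 33 with Acot4. It is listed at 0 in all 6 libraries. Reads there fit more than 1 gene, and how such reads were counted is not given, so the 0 is not read as absence.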
